A study of Mus musculus with 6 samples.

Results

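The 35 genes described here encode chains of interleukin and interferon receptors and were chosen by symbol from the 24411 genes in the files. All 35 symbols were found. Expression was measured by bulk RNA-seq in 6 libraries of lineage-negative bone marrow cells of CD45.2 C57BL/6 mice, 3 control (Brd9fl/fl, without Cre) and 3 Brd9 KO (Mx1-Cre Brd9fl/fl). Both genotypes received 3 injections of pIpC, a double-stranded RNA mimic, at 20 mg/kg, and marrow was collected 8 weeks after pIpC. The series design places the injections 4 weeks after birth and the labels 4 weeks after transplantation, while the methods give an age of 4 months, which is older than the series design implies. Brd9 encodes a bromodomain subunit of the non-canonical BAF chromatin remodelling complex, and the question was how its loss alters transcription in hematopoietic stem and progenitor cells. The study's methods give the cells as Lin-c-Kit+ and sorted from primary mice, whereas the sample labels describe lineage-negative marrow of transplant recipients. Mx1-Cre is driven by an interferon-responsive promoter and acts in many cell types, and since control mice carried no Cre, effects of Cre and of Brd9 loss cannot be told apart.

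Interleukin and interferon receptors are assembled from separate chains, usually a ligand-binding chain and a signalling partner. The IL-1 and IL-18 receptors signal through MyD88 and IRAK kinases, most others through JAK kinases and STAT factors, and the IL-17 receptors through the adaptor Act1. In marrow, such receptors let progenitors sense infection and inflammation, and type I interferon and IFN-gamma are known to act on hematopoietic stem cells.

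Brd9 itself measured 45.9, 49.1 and 52.1 CPM (counts scaled to the same TMM-adjusted library total) in the control libraries and 15.6, 13.5 and 21.0 CPM in the Brd9 KO libraries, with log2 fold change -1.56 ± 0.17 (SE) and adjusted p = 0.00345. Libraries held 21151031 to 28500168 expected counts, and between 15160 and 15491 genes had a count. Brd9 KO replicate 3 stood apart from the other libraries on the second principal component, which held 28.3% of the variance. The summed TPM (a length-scaled relative level) of 10 neutrophil genes was 27888 in that library and 5805 to 9699 in the others. Among genes of the sorted population, Kit measured 178 to 269 CPM and Cd34 277 to 407 CPM over the 6 libraries. Cd3e, which encodes a T cell receptor subunit, was at 1.05 to 2.41 CPM. Cd3e does not stand for all other lineages. Summed TPM over the 6 libraries was 48.7 to 109 for 8 T cell genes, 352 to 603 for 8 NK cell genes and 3081 to 12892 for 6 eosinophil genes.

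Promoter sequence is given for the IL-18 receptor genes, which lie side by side and had the largest rises among the tested chains, and for Ifngr1, the chain that fell. Sequences are from RefSeq on GRCm38.p6, plus strand, and capitals mark matches to a searched motif. The Il18r1 stretch, chr1:40465782-40465969, is mostly intronic for transcripts from the first start and lies just before the last of its 3 RefSeq starts. The stretch holds both Il18r1 matches to the STAT motif GAS (TTCNNNGAA), while the windows at the earlier Il18r1 starts held no match to a searched motif. The Il18rap stretch, chr1:40515112-40515361, and the Ifngr1 stretch, chr10:19591699-19591948, end at the base before the start.
Il18r1: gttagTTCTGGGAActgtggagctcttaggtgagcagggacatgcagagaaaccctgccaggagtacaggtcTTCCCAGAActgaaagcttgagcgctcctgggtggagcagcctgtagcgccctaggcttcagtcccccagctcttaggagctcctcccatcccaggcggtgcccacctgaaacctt
Il18rap: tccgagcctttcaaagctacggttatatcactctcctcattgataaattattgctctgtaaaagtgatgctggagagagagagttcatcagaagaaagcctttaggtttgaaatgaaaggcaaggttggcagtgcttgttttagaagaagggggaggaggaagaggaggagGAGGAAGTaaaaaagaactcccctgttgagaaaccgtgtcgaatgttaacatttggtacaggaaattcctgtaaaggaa
Ifngr1: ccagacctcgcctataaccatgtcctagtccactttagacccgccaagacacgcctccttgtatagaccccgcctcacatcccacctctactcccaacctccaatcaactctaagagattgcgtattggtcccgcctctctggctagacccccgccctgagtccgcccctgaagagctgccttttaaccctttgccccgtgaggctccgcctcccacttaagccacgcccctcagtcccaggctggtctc
The single match upstream of Il18rap is to a PU.1 core (GAGGAAGT), and no searched motif matched in the Ifngr1 window.

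RefSeq held 37 such windows (250 bases before to 50 bases after a start) for 30 of the 35 genes. The GAS letters were found in the windows of Ifnar1, Ifnar2, Il12rb2, Il1r2, Il31ra and Il18r1, which is 6 of 37 windows, against 8.30% of 32851 mouse promoter windows. The interferon element ISRE was found in 1 window, that of Il1rap, against 3.44% of all windows. The PU.1 core was found in 1 window, against 3.20%. AP-1 (TGANTCA) was found in 3 windows, the GATA-factor motif with the letters AGATAA in 5 and C/EBP (TTGCNNAA) in 4, against 7.81%, 11.2% and 10.8% of all windows. Both strands were searched, and a match is a description of the letters, not of binding.

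Of the 35 chains, 32 passed the expression filter and were tested. With edgeR's quasi-likelihood test and Benjamini-Hochberg adjustment over all 12953 genes tested (called at adjusted p under 0.1), 5 chains rose in Brd9 KO cells and 1 fell. The risers were Il18rap, Il18r1, Il1r1, Il2rg and Il27ra, and the chain that fell was Ifngr1. The 6 called chains are 18.8% of those tested, while 15.4% of all genes were called. The 5 risers are 15.6%, against 9.19% of all genes called higher, and the single fall is 3.13%, against 6.25% called lower. The median log2 fold change was 0.09 over the tested chains and 0.02 over all genes. The groups did not overlap for 12 of the 32 chains, 8 higher and 4 lower, a share of 37.5% against 33.5% of all genes (17.2% higher and 16.3% lower). The share of chains called in either direction was thus near that of all genes, and the results below concern single chains.

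**Figure D1:**
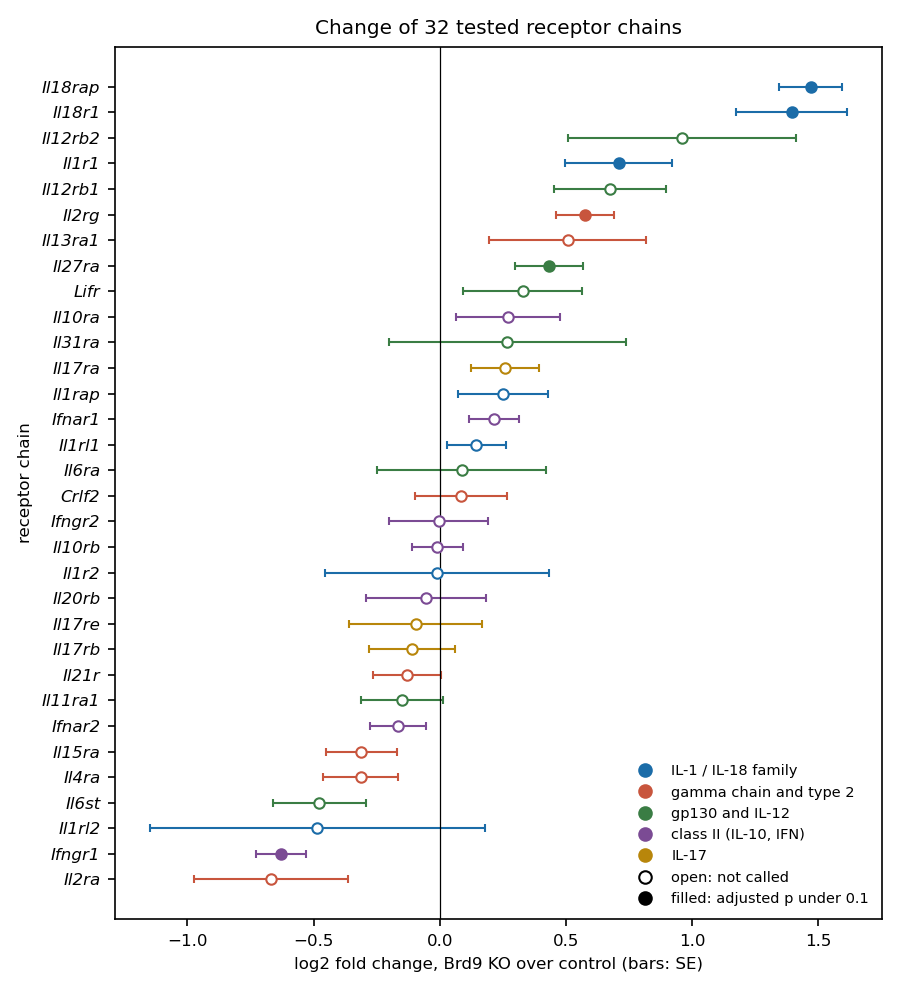
Log2 fold change (Brd9 KO over control, horizontal axis) of the 32 tested receptor chains, sorted, with bars for the SE and colours for receptor families; filled points had an adjusted p under 0.1. Il18rap and Il18r1 stand to the right of all other chains at 1.47 and 1.40, and Ifngr1 at -0.63 is the only filled point left of 0.

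Per length, the most abundant chains in control cells were Ifngr1 at 192 ± 14.5 TPM (SD, n = 3), Ifnar2 at 91.1 ± 8.99, Crlf2 at 59.7 ± 6.88, Il11ra1 at 46.5 ± 2.71, Il17ra at 46.1 ± 5.79 and Il2rg at 37.0 ± 1.64. Il11ra1 and Il17ra did not differ beyond their spread, nor did Il2rg, Il10rb at 35.6 ± 1.91 TPM and Ifngr2 at 35.5 ± 2.62 TPM. Ifngr1 stayed the most abundant in Brd9 KO cells at 144 ± 13.6 TPM. Il18rap moved from rank 16 of 35 (10.03 ± 2.24 TPM) to rank 9 (31.96 ± 3.58 TPM), and Il2rg from rank 6 to rank 4 (64.1 ± 3.49 TPM). At the other end Osmr, the oncostatin M receptor chain, was at 0.02 ± 0.01 TPM in control cells.

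**Figure D2:**
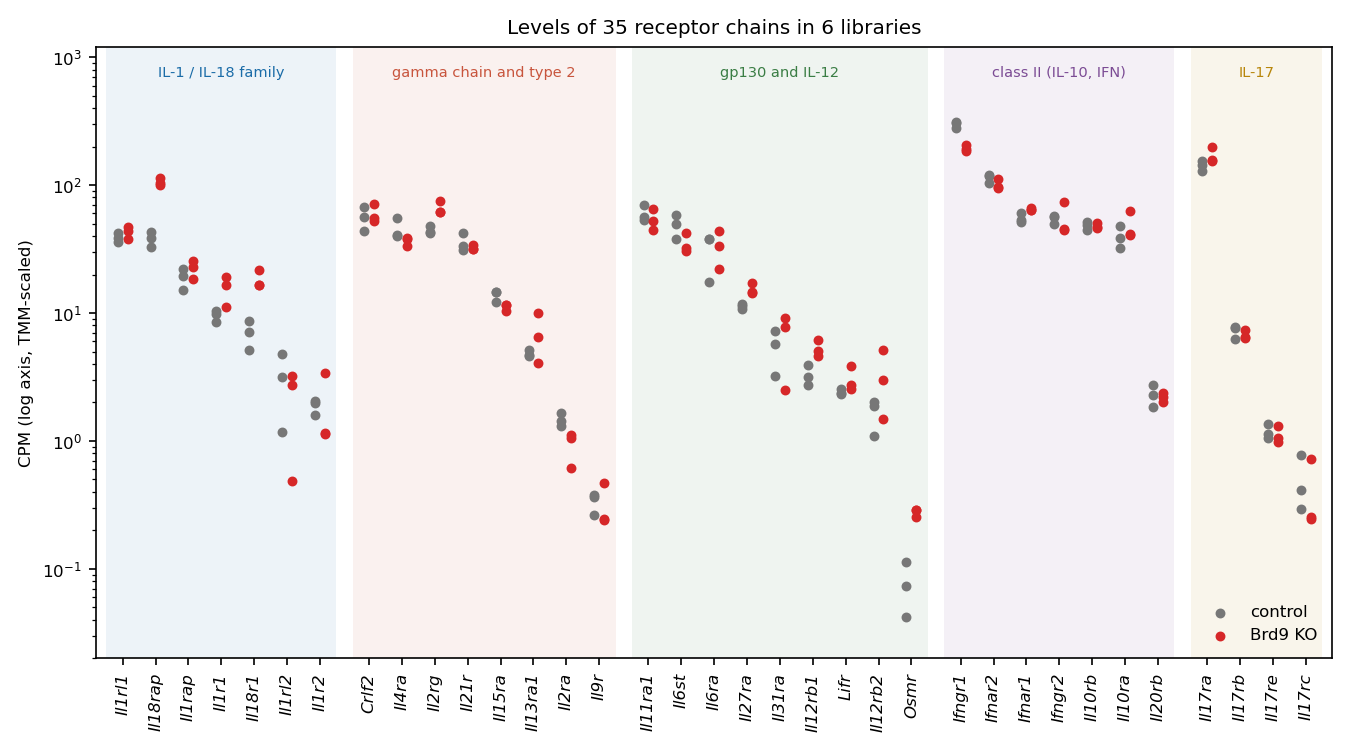
CPM of each of the 35 receptor chains (log axis) in the 3 control (grey) and 3 Brd9 KO (red) libraries, by receptor family and ordered by control level. Levels span from Osmr at 0.04 CPM to Ifngr1 at 312 CPM, and the tested chains whose groups are furthest apart for their spread include Il18rap, Il18r1 and Ifngr1.

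The IL-1 receptor family held 3 of the 5 risers among its 7 tested chains, against 9.19% of all genes called higher. Il18rap, the accessory chain that the IL-18 receptor needs to signal, measured 32.7, 38.8 and 42.9 CPM in control and 99.5, 105 and 113 CPM in Brd9 KO libraries. Every Brd9 KO library was more than 2 times as high as every control library, and the log2 fold change was 1.47 ± 0.12 (adjusted p = 0.00175). Il18r1, the chain that binds IL-18, measured 5.15, 7.08 and 8.72 CPM in control and 16.7, 21.8 and 16.7 CPM in Brd9 KO libraries. Its groups did not overlap either, and its log2 fold change was 1.40 ± 0.22 (adjusted p = 0.0118). The TPM ratio of the receptor pair, Il18rap to Il18r1, was 4.29 ± 0.62 in control and 4.49 ± 0.93 in Brd9 KO libraries (exact two-sided permutation test, p = 0.8). In bulk RNA, a change in the number of cells that carry a receptor cannot be told apart from a change in RNA per cell, here and below.

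Il1r1, the signalling receptor for IL-1, measured 9.80, 8.52 and 10.4 CPM in control and 19.2, 16.6 and 11.2 CPM in Brd9 KO libraries. The groups did not overlap, but Brd9 KO replicate 3 was close to the controls, and the log2 fold change was 0.71 ± 0.21 (adjusted p = 0.0833). The call of Il1r1 ended when any library other than Brd9 KO replicate 3 was left out: adjusted p was 0.179, 0.197 and 0.152 without control replicates 1, 2 and 3, and 0.251 and 0.211 without Brd9 KO replicates 1 and 2. The call also ended in all 3 fits on TPM (adjusted p 0.150 to 0.220).

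The other 4 chains of the family were not called. Il1rl1, the IL-33 receptor ST2, was at 36.2 to 42.3 CPM in control and 38.2 to 47.3 CPM in Brd9 KO libraries, with log2 fold change 0.14 ± 0.12 (adjusted p = 0.450). Il1rap, the accessory chain shared by the IL-1, IL-33 and IL-36 receptors, had log2 fold change 0.25 ± 0.18 (adjusted p = 0.395). Il1r2, a decoy that binds IL-1 without signalling, was at 1.58 to 2.07 CPM in control, at 1.146 and 1.128 CPM in Brd9 KO replicates 1 and 2 and at 3.38 CPM in replicate 3. Il1rl2, the IL-36 receptor, was at 1.17, 4.81 and 3.17 CPM in control and 2.74, 3.20 and 0.48 CPM in Brd9 KO libraries, a spread within groups larger than the difference between them.

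**Figure D3:**
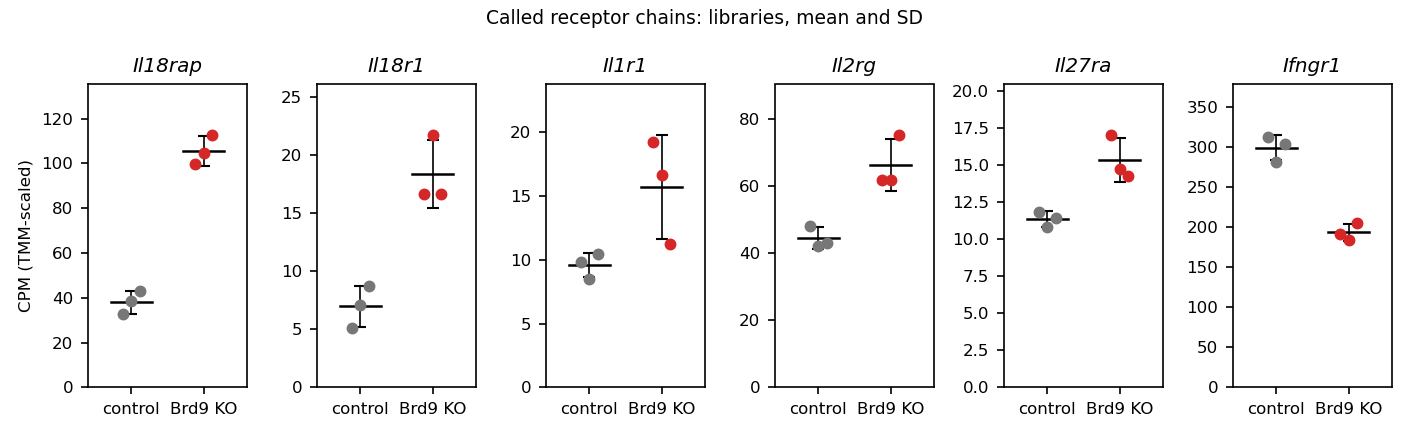
CPM (from 0) of the 6 called receptor chains, with a point for each of the 3 control (grey) and 3 Brd9 KO (red) libraries, a line at the mean and bars for the SD. The groups are apart for all 6, with the narrowest gap in Il1r1, where the highest control library is at 10.4 CPM and the lowest Brd9 KO library at 11.2 CPM.

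Of the 7 IL-1 family genes, 6 lie in a cluster on chromosome 1, all on the plus strand, in the order Il1r2, Il1r1, Il1rl2, Il1rl1, Il18r1 and Il18rap (mm10 positions from RefSeq). The cluster spans 467 kb. Il18r1 (chr1:40465552-40500854) starts 133 bases past the end of Il1rl1 (chr1:40404864-40465418), and Il18rap (chr1:40515362-40551707) starts 14.5 kb past the end of Il18r1. Along it, Il1r2 was not called, Il1r1 rose, Il1rl2 and Il1rl1 were not called, and the neighbours Il18r1 and Il18rap rose. A difference between neighbouring genes was not tested.

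**Figure D4:**
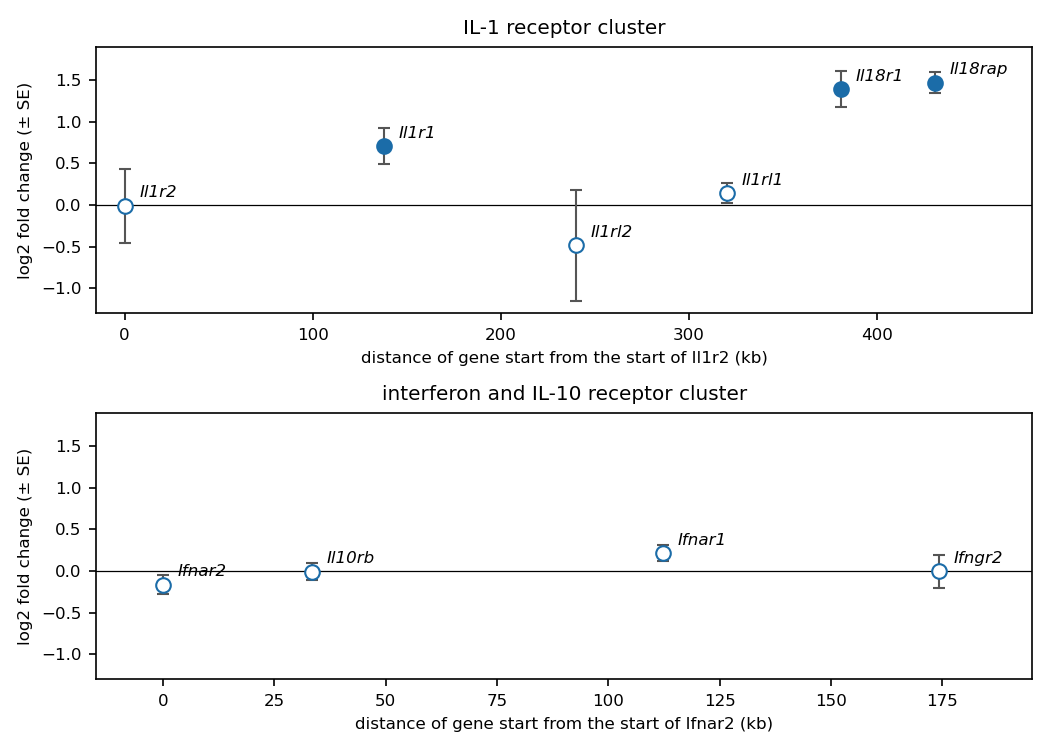
Log2 fold change with SE of the receptor genes in the chromosome 1 cluster (top) and the chromosome 16 cluster (bottom) against the distance of each start from the first gene's start in kb; filled points were called. In the top panel Il18r1 and Il18rap, 381 and 431 kb along, are at 1.40 and 1.47, while the 4 genes of the bottom panel lie between -0.17 and 0.22.

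Among the chains of the gamma chain and type 2 cytokine receptors, 1 of 7 tested was called, against 15.4% of all genes. Il2rg (chrX:101264385-101268255), the common gamma chain of the IL-2, IL-4, IL-7, IL-9, IL-15 and IL-21 receptors, measured 48.2, 42.0 and 43.1 CPM in control and 61.9, 61.8 and 75.3 CPM in Brd9 KO libraries. The groups did not overlap, with log2 fold change 0.58 ± 0.12 and adjusted p = 0.0274. Adjusted p was 0.108 without control replicate 2 and 0.102 without control replicate 3, which ends the call.

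Of the chains that join Il2rg in receptors, Il4ra, Il15ra and Il2ra had lower CPM in every Brd9 KO library, without passing the test. Of all genes, 16.3% were lower without overlap. In TPM, Il4ra (8.87 to 15.09 in control, 9.41 to 12.35 in Brd9 KO libraries) and Il15ra (10.99 to 14.02 and 9.84 to 11.88) overlapped. Il21r overlapped in CPM, and Il2rb, described below, was called higher. Il4ra, the IL-4 and IL-13 receptor chain, measured 40.5, 55.2 and 40.0 CPM in control and 33.2, 37.6 and 38.4 CPM in Brd9 KO libraries, at log2 fold change -0.31 ± 0.15 (adjusted p = 0.213). Il15ra, which presents IL-15, was at 10.3 to 11.6 CPM in Brd9 KO libraries against 12.3 to 14.6 CPM in control (adjusted p = 0.2001). Il2ra, the inducible high-affinity IL-2 chain, was at 1.31 to 1.67 CPM in control and 0.62 to 1.11 CPM in Brd9 KO libraries (log2 fold change -0.67 ± 0.31, adjusted p = 0.201). The TPM ratio of Il2rg to Il4ra was 3.38 ± 0.74 in control and 6.11 ± 0.54 in Brd9 KO libraries without overlap (exact two-sided permutation test, p = 0.1, the smallest that 3 against 3 libraries allow, and 0.25 adjusted over the 10 ratios compared).

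Il21r measured 31.0 to 42.3 CPM in control and 31.7 to 33.8 CPM in Brd9 KO libraries. Crlf2, the TSLP receptor chain, measured 43.7 to 68.0 CPM in control and 52.6 to 70.6 CPM in Brd9 KO libraries, with log2 fold change 0.09 ± 0.18 (adjusted p = 0.790). Il13ra1, which joins Il4ra in the type II IL-4 receptor, was at 4.601 to 5.109 CPM in control and 4.05, 6.51 and 10.03 CPM in Brd9 KO libraries (adjusted p = 0.323). All 3 overlapped between groups, and the highest Il13ra1 and Crlf2 values were both in Brd9 KO replicate 3. Il9r, the IL-9 receptor, had only 5 to 13 counts per library and was not tested.

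In the gp130 and IL-12 receptor family, 1 of 8 tested chains was called, against 15.4% of all genes. Il27ra (chr8:84030286-84042600), which forms the IL-27 receptor with gp130, measured 11.8, 10.8 and 11.4 CPM in control and 17.0, 14.7 and 14.3 CPM in Brd9 KO libraries. The groups did not overlap, with log2 fold change 0.43 ± 0.14 and adjusted p = 0.0924. The call was lost in 12 of 19 alternatives, among them leaving out any library except Brd9 KO replicate 3 (adjusted p 0.163 to 0.294). An exon of Palm3 lies on the opposite strand of Il27ra. If counting ignored strand, as the labels give, reads there could come from either gene. The expected counts of Il27ra were whole in every library, so no division of its reads by RSEM was seen. Whether reads of Palm3 entered its count was not tested.

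Neither IL-12 receptor chain was called. Il12rb1, shared by the IL-12 and IL-23 receptors, measured 3.94, 3.16 and 2.76 CPM in control and 5.03, 6.11 and 4.58 CPM in Brd9 KO libraries, without overlap, at log2 fold change 0.67 ± 0.22 (adjusted p = 0.102). It was called in 5 of 19 alternatives, including DESeq2 (adjusted p = 0.0580). Il12rb2, the chain specific to IL-12, measured 1.10, 2.02 and 1.88 CPM in control and 2.99, 5.17 and 1.49 CPM in Brd9 KO libraries, so that Brd9 KO replicate 3 lay within the controls (log2 fold change 0.96 ± 0.45, adjusted p = 0.214). With 1 library left out its log2 fold change ranged from 0.43 without Brd9 KO replicate 2 (adjusted p = 0.620) to 1.29 without Brd9 KO replicate 3 (adjusted p = 0.0384). An exon of Serbp1 lies on the opposite strand of Il12rb2, with the same limit, and its expected counts were also whole in every library.

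Il6st, which encodes gp130, the signalling chain of the IL-6 family, measured 38.2, 49.4 and 58.5 CPM in control and 32.4, 42.1 and 30.4 CPM in Brd9 KO libraries. The groups overlapped, with log2 fold change -0.48 ± 0.18 (adjusted p = 0.146), and it was called lower in 2 of 19 alternatives, DESeq2 (adjusted p = 0.0903) and without control replicate 1 (0.0984). The log2 fold change was -0.33 without control replicate 3 (adjusted p = 0.347) and -0.25 to -0.23 in the 3 fits on TPM (0.622 to 0.675). Il6ra, its IL-6-binding partner, ranged from 17.6 to 38.1 CPM in control and from 22.1 to 44.1 CPM in Brd9 KO libraries, so that any change was small beside the spread within groups. Il11ra1, the IL-11-binding chain, measured 53.4 to 69.6 CPM in control and 44.5 to 64.8 CPM in Brd9 KO libraries (log2 fold change -0.15 ± 0.16, adjusted p = 0.581). Its expected counts were not whole in any library, so RSEM divided some of its reads, and an exon of Ccl27a overlaps it on the opposite strand. Its level is uncertain, and the source of the divided reads was not tested.

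The LIF receptor chain Lifr was at 2.35 to 2.54 CPM in control and 2.55 to 3.86 CPM in Brd9 KO libraries, barely apart (adjusted p = 0.394). Il31ra, an IL-31 receptor chain, was at 3.22 to 7.21 CPM in controls and at 7.73, 9.13 and 2.51 CPM in Brd9 KO libraries, the last again replicate 3. Its partner Osmr had 3, 1 and 2 counts in control and 7, 7 and 6 counts in Brd9 KO libraries, too few to pass the filter.

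All 7 class II chains, which serve interferons and the IL-10 family, were tested, and only Ifngr1 was called, against 15.4% of all genes. Ifngr1 (chr10:19591949-19610229), the IFN-gamma-binding chain, measured 312, 281 and 304 CPM in control and 191, 183 and 205 CPM in Brd9 KO libraries. The groups did not overlap, and the log2 fold change was -0.63 ± 0.10 (adjusted p = 0.0116). In the 3 fits on TPM, where the median of all genes was itself above 0, it was -0.41 (adjusted p 0.0670 to 0.0872). Its partner Ifngr2, the signalling chain of the same receptor, measured 57.5, 49.7 and 56.3 CPM in control and 44.2, 45.5 and 73.4 CPM in Brd9 KO libraries. Brd9 KO replicates 1 and 2 were below every control and replicate 3 above every control, so the log2 fold change was -0.004 ± 0.20 (adjusted p = 0.992). Without Brd9 KO replicate 3 it was -0.28 (adjusted p = 0.0979).

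The TPM ratio of Ifngr1 to Ifngr2 was 5.34, 5.57 and 5.32 in controls and 4.26, 3.97 and 2.75 in Brd9 KO libraries, lower in all 3 (exact two-sided permutation test, p = 0.1, and 0.25 adjusted over 10 ratios). The balance of the IFN-gamma receptor transcripts was thus lower in each Brd9 KO library, at the limit of what 3 against 3 libraries can show.

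The type I interferon receptor chains were not called. Ifnar1 measured 53.6, 51.7 and 60.8 CPM in control and 63.4, 66.1 and 63.4 CPM in Brd9 KO libraries, without overlap, at log2 fold change 0.22 ± 0.10 (adjusted p = 0.2002). Ifnar2 measured 117, 103 and 119 CPM in control and 94.4, 97.0 and 112 CPM in Brd9 KO libraries (log2 fold change -0.17 ± 0.11, adjusted p = 0.368). The TPM ratio of Ifnar2 to Ifnar1 was 9.20 ± 0.48 in control and 7.12 ± 1.26 in Brd9 KO libraries without overlap (exact two-sided permutation test, p = 0.1, and 0.25 adjusted). Both genes lie with Il10rb and Ifngr2 in a 191 kb cluster on chromosome 16, in which none of the 4 genes was called by edgeR or DESeq2 and 0 had an unadjusted p under 0.05.

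The IL-10 receptor chains overlapped between groups. Il10ra, which binds IL-10, was at 32.5 to 48.3 CPM in controls and at 41.4, 40.6 and 62.2 CPM in Brd9 KO libraries. Il10rb, its shared partner, was at 44.3 to 51.8 CPM in control and 46.1 to 50.4 CPM in Brd9 KO libraries, at log2 fold change -0.01 ± 0.10 (adjusted p = 0.960). Il20rb, a chain of the IL-20 and IL-24 receptors, was at 1.84 to 2.72 CPM over the 6 libraries.

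None of the 3 tested IL-17 receptor chains was called by edgeR or DESeq2, and 0 had an unadjusted p under 0.05. Il17ra, the chain common to this family, measured 143, 128 and 155 CPM in control and 154, 156 and 199.8 CPM in Brd9 KO libraries (log2 fold change 0.26 ± 0.14, adjusted p = 0.257). It was called higher in the 3 fits on TPM, where its log2 fold change was 0.46 to 0.47 and the median over all genes was itself 0.10 to 0.22. Il17rb, which binds IL-25, was at 6.28 to 7.80 CPM in control and 6.34 to 7.38 CPM in Brd9 KO libraries, and Il17re, which binds IL-17C, at 0.98 to 1.36 CPM in all 6 libraries. The TPM ratio of Il17ra to Il17rb, the IL-25 receptor pair, was 9.69 ± 0.55 in control and 12.4 ± 0.83 in Brd9 KO libraries (exact two-sided permutation test, p = 0.1, and 0.25 adjusted). Il17rc had 6 to 21 counts per library and was not tested.

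**Figure D5:**
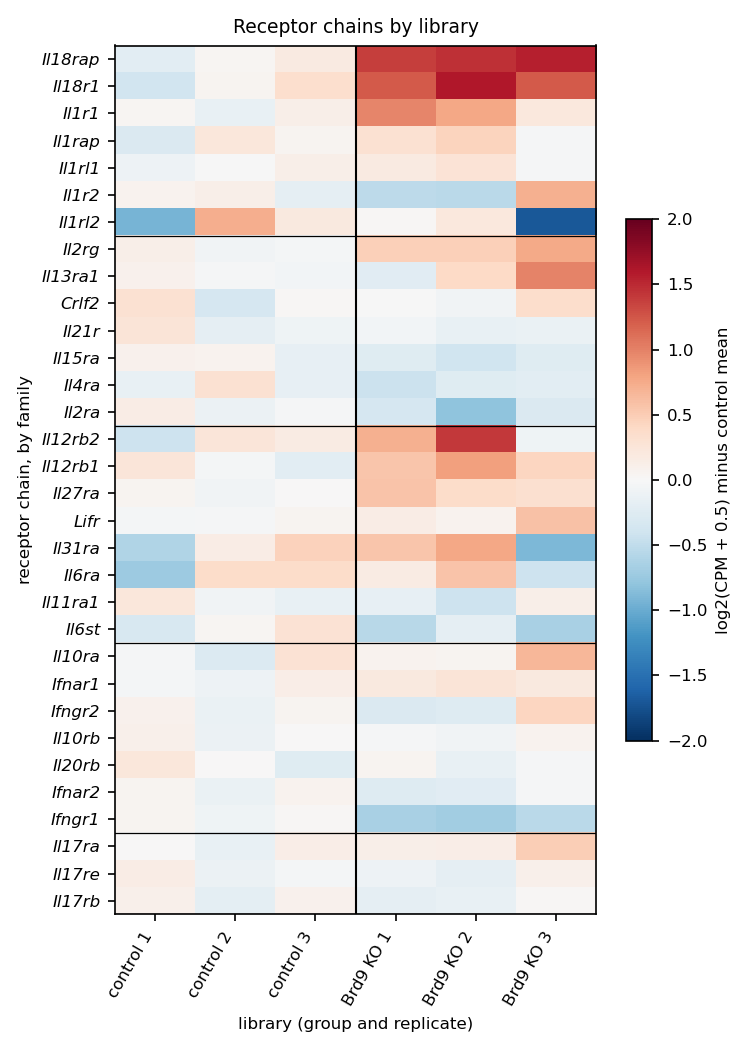
Difference of log2(CPM + 0.5) from the control mean (colour) for the 32 tested receptor chains (rows, by family) in the 3 control and 3 Brd9 KO libraries (columns). Il18rap, Il18r1 and Ifngr1 have 1 colour across all 3 Brd9 KO libraries, whereas Il1r2, Il1rl2, Il12rb2, Il31ra and Ifngr2 differ between Brd9 KO replicate 3 and the other two.

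Over the 32 tested chains, Brd9 KO replicate 3 was the highest library for 9 and the lowest for 3. This count alone did not set it apart from control replicate 1 (9 and 7) or Brd9 KO replicate 2 (8 and 6). Over all genes tested, its log2 CPM correlated at 0.983 and 0.977 with Brd9 KO replicates 1 and 2, which correlated at 0.995 with each other. Control pairs correlated at 0.986 to 0.995. Without Brd9 KO replicate 3, 7 chains were called higher and 2 lower, while 31.6% of all genes were called. The chains gained were Il12rb1 and Il12rb2 (higher) and Ifngr2 (lower). With all libraries but 1, for each library in turn, Il18rap (log2 fold change 1.37 to 1.56), Il18r1 (1.21 to 1.59) and Ifngr1 (-0.68 to -0.60) were called each time.

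Of the genes encoding the ligands of these receptors, 16 of 39 in the files were tested, and 3 rose and 2 fell. Over all genes tested, 9.19% were called higher and 6.25% lower. Il6 rose from 2.71 ± 1.02 to 7.40 ± 2.28 CPM (1.44 as log2 fold change, adjusted p = 0.0456), Il4 from 1.26 ± 0.50 to 3.17 ± 1.03 CPM (1.31, adjusted p = 0.0754) and Il15 from 9.99 ± 1.98 to 16.6 ± 3.61 CPM (0.73, adjusted p = 0.0784). Il12a, which encodes the p35 subunit of IL-12, fell from 16.6 ± 3.68 to 6.05 ± 0.35 CPM (-1.46 as log2 fold change, adjusted p = 0.00668). Tslp fell from 4.36 ± 1.65 to 2.09 ± 0.33 CPM (-1.06 as log2 fold change, adjusted p = 0.0877). Leaving out a library left 0 to 3 ligands called higher: 0 if control replicate 2 or Brd9 KO replicate 1 was omitted, and 1 if control replicate 1 or 3 was. On leaving out Brd9 KO replicate 1 or 2, or 1 of the controls 1 and 3, 1 ligand was called lower.

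Of 31 signalling genes downstream of the receptors, 8 rose and none fell by edgeR's test, against 9.19% higher and 6.25% lower of all genes. Of those with a lower level, 1 had an unadjusted p under 0.05, and DESeq2 called 9 higher and 0 lower. The kinase gene Jak2 rose from 117 ± 13.4 to 182 ± 22.7 CPM (0.65 as log2 fold change, adjusted p = 0.0307), and Stat3 from 120 ± 8.84 to 161 ± 5.14 CPM (0.42, adjusted p = 0.0418). Irak3, which restrains signalling by IL-1 and IL-18 receptors, rose from 34.5 ± 5.46 to 53.2 ± 4.53 CPM (0.63 as log2 fold change, adjusted p = 0.0358). Cish, a STAT5 target and feedback inhibitor, rose from 3.32 ± 0.86 to 6.21 ± 0.74 CPM (0.90 as log2 fold change, adjusted p = 0.0593). The count was 0 without Brd9 KO replicate 1, 1 without control replicate 3 or Brd9 KO replicate 2, 3 and 4 without control replicates 1 and 2, and 10 without Brd9 KO replicate 3. It was 3 at an adjusted p under 0.05, 4 with over 1.5-fold required and 1 in the fit on log2(TPM + 1) without the filter.

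Other cytokine receptors outside the 35 chains gave 8 higher and 1 lower of 20 tested, against 9.19% higher and 6.25% lower of all genes. This list shares Il5ra, Lepr and Il7r with the eosinophil, stromal and type 2 innate lymphoid lists below, so those counts are not separate. Il5ra, the IL-5-binding chain of eosinophils, rose from 2.26 ± 0.06 to 10.6 ± 1.19 CPM (2.23 as log2 fold change, adjusted p = 0.00122). Csf2rb2, the IL-3-specific beta chain, rose from 28.7 ± 4.35 to 63.0 ± 3.61 CPM (1.13 as log2 fold change, adjusted p = 0.00435). Il2rb, the beta chain of the IL-2 and IL-15 receptors and partner of Il2rg, rose from 7.98 ± 1.78 to 18.4 ± 2.61 CPM (1.204 as log2 fold change, adjusted p = 0.0140). Lepr, the leptin receptor and a mark of marrow stroma, rose from 0.56 ± 0.32 to 3.59 ± 1.40 CPM (2.67 as log2 fold change, adjusted p = 0.0178). The chain that fell was Epor, the erythropoietin receptor, at log2 fold change -0.49 (adjusted p = 0.0464). Its call was lost on leaving out Brd9 KO replicate 1 or 2, or 1 of the controls 1 and 3. The Epor call was also lost in the 3 fits on TPM and with over 1.5-fold required. The count of rises was 5 if control replicate 2 or Brd9 KO replicate 1 or 2 was left out.

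Of 20 genes induced by interferon, 1 rose and 3 fell, against 9.19% higher and 6.25% lower of all genes. Gbp3, a guanylate-binding protein gene, fell from 53.5 ± 1.43 to 26.4 ± 0.60 CPM (-1.02 as log2 fold change, adjusted p = 0.00192), and Oas1a and Isg15 fell by 0.53 and 0.84 on the log2 scale (adjusted p = 0.0418 and 0.0957). Ddx58, which encodes the RNA sensor RIG-I, rose by 0.73 (adjusted p = 0.0230). The remaining 16 were not called. The count of falls was 1 without control replicate 1 or 3 or without Brd9 KO replicate 1 or 2, and 5 without Brd9 KO replicate 3, and it was 1 in the 3 fits on TPM.

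Markers of some of the cell types known to carry these receptors also moved, while most T cell genes were not called. The counts in this paragraph and the next compare with 9.19% of all genes called higher and 6.25% called lower. Of 8 NK cell genes, 5 were called higher and 1 lower. Gzma measured 1.65 to 1.95 CPM in control and 8.08 to 17.6 CPM in Brd9 KO libraries, Eomes 0.64 to 1.32 and 3.11 to 4.77 CPM, and Ncr1 1.65 to 3.02 and 4.38 to 5.98 CPM. Nkg7 fell from 231 to 306 CPM in control to 121 to 162 CPM in Brd9 KO libraries, and with it the summed TPM of the list, from 500 to 603 in control to 352 to 375 in Brd9 KO libraries. Of 8 T cell genes only Cd4 was called (higher), and the summed TPM was 48.7 to 65.4 in control and 85.7 to 109 in Brd9 KO libraries. Of 6 tested mast cell and basophil genes 5 were called higher, with summed TPM of 2773 to 3537 in control and 5737 to 6700.2 in Brd9 KO libraries. Tpsab1, which marks mast cells, was at 0 in every library. Eosinophil genes gave 5 higher and 1 lower of 6 (summed TPM 3081 to 3381 and 8206 to 12892), and macrophage genes 5 higher of 8 (83.1 to 131 and 156 to 189). The summed level of 8 genes of type 2 innate lymphoid cells, 4 of them tested and Areg at 0 in every library, was 3.35 to 5.86 TPM in control and 6.39 to 6.71 TPM in Brd9 KO libraries, with Rora called higher. Their part in the results on Il18rap, Il18r1, Il2rg and Il1r1 was not tested.

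Stromal genes gave 9 higher of 11 (summed TPM 12.8 to 20.2 in control and 47.6 to 94.6 in Brd9 KO libraries), endothelial genes 4 higher of 7 (56.6 to 63.3 and 76.7 to 108) and megakaryocyte genes 4 higher of 8 (1887 to 2941 and 4672 to 7113). Progenitor genes gave 4 higher of 10 (summed TPM 854 to 983 and 1056 to 1365). Of 4 B cell genes tested 0 were called by edgeR or DESeq2 and 0 had an unadjusted p under 0.05 (summed TPM 81.8 to 112 and 92.1 to 146). Of 10 neutrophil genes 1, Camp, fell, and 2 of 6 dendritic cell genes, Bst2 and Cd209a, fell (summed TPM 230 to 258 and 161 to 197). The part of these cells in the changes of Ifngr1, Il1r1 and Il27ra was not tested.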

How the data were processed

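Poly(A) RNA-seq libraries (3 control, 3 Brd9 KO) were grouped by sample titles. The authors mapped reads to mm10 with nf-core/rnaseq 3.0 (STAR and RSEM), and the deposited files give, per gene, an expected count (estimated, not always whole), TPM and an effective length as a deposited score in bases. Here expected counts were rounded, filtered with filterByExpr, TMM-scaled and tested with edgeR 4.0.16 (quasi-likelihood, no covariate) in R 4.3.3, adjusting over 12953 genes, with the study's threshold of 0.1. The authors' own test, DESeq2 with hypothesis weighting, was left out. Each SD is over 3 libraries, and each SE is that of the log2 fold change. Partner chains were compared as TPM ratios by exact permutation. Counts were simulated for 12927 tested genes, with 66 or 67 genes changed at each fold. Of these, 34.3% of 1.5-fold, 73.1% of 2-fold and 93.9% of 4-fold changes were recovered, and 14.6% of 157 calls were false. Far fewer genes were changed than were called in the data (1999), so these shares may not carry over.

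Alternatives were RLE, library-total and upper-quartile scaling, no filter, at least 1 CPM in 3 libraries, DESeq2 1.42.0, limma 3.58.1 (voom, log2(TPM + 1) with and without the filter, log2(TPM + 0.1)), a replicate block, stricter thresholds and each library left out. Every member is accounted for: called chains with all values, others by level or range, and up to 4 called genes of each other list with the smallest p (for ligands all 5). The members and lists were chosen with earlier results of these data known. On strandedness the sources differ (labels unstranded, methods a stranded kit). The study describes biological triplicates. The labels do not say that replicates are separate animals, and if they are not, p-values reflect a spread that may be technical. Genes on opposite strands with overlapping exons were Il1rap with Gm20319, Il4ra with Gm44876, Il6ra with Gm42809, Il11ra1 with Ccl27a, Il12rb2 with Serbp1, Il27ra with Palm3 and Il17rb with Actr8.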

Additional observations from a re-analysis of the deposited data

How the results depend on the processing

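Over 19 alternatives, Il18rap, Il18r1, Ifngr1 and Brd9 were called in the same direction each time. Among the 5 chains called higher, Il2rg lost its call in 3 alternatives, Il1r1 in 9 and Il27ra in 12, and no called chain changed sign. The count of chains called higher was 2 to 7 when 1 library was left out, 3 at an adjusted p under 0.05 and 3 with a change over 1.5-fold also required. The count called lower was 1 to 2 when 1 library was left out, and 2 under DESeq2, where Il6st joined Ifngr1. Of all genes, 641 to 4150 were called with 1 library left out, against 1999 with all, and 2750 under DESeq2. Same-numbered libraries deviated together with correlations of -0.10, 0.61 and 0.01, and differently numbered ones with -0.60 to 0.48. With 3 libraries per group, these values cannot show whether the replicate number pairs libraries. With a replicate block 4 chains were called higher and 1 lower, Il27ra being lost (adjusted p = 0.106). Library-total scaling and the 3 TPM fits raised the median of all genes from 0.02 to 0.10 and to between 0.10 and 0.22. Under these, 9 uncalled chains changed sign, without a call. The log2 fold change was then, for library-total scaling, log2(TPM + 1) with or without the filter, and log2(TPM + 0.1) in turn, 0.059, 0.042 and 0.035 for Il1r2, 0.078, 0.20 and 0.21 for Il10rb, 0.038, 0.099 and 0.16 for Il20rb, and 0.074, 0.17 and 0.18 for Ifngr2. For the TPM fits alone it was 0.094 and 0.098 for Il21r, 0.060 and 0.061 for Il11ra1, 0.049 and 0.050 for Ifnar2, 0.093 and 0.11 for Il17rb, and 0.070 and 0.16 for Il17re. Upper-quartile scaling gave 0.0025 for Il1r2, 0.0059 for Ifngr2 and 1.43e-06 for Il10rb, and the filter on 1 CPM gave 0.0010 for Ifngr2. With 1 library left out the range crossed 0 for Il1r2 (-0.72 to 0.26), Il21r (-0.22 to 0.013), Crlf2 (-0.068 to 0.25), Il6ra (-0.20 to 0.31), Il31ra (-0.071 to 0.64), Il10rb (-0.071 to 0.042), Il20rb (-0.19 to 0.093), Ifngr2 (-0.28 to 0.13) and Il17re (-0.22 to 0.015). At this depth the least abundant chains, such as Osmr, Il9r and Il17rc, could not be tested.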
